A study of Mus musculus with 22 samples.

Results

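The metabotropic glutamate receptors are G-protein-coupled receptors through which glutamate, the main excitatory transmitter of the brain, adjusts the strength of synapses over longer times than its ion channel receptors do. Group I receptors, here Grm5, couple to Gq and phospholipase C and lie mostly on the postsynaptic side. Group II (Grm2 and Grm3) and group III (Grm4, Grm7 and Grm8) couple to Gi/o, lower cyclic AMP and sit largely on terminals, where they hold back transmitter release. The 6 genes were taken by name: every row of the expression table to which the array's annotation gives 1 of these symbols and no other was used. That gave 106 probesets of 1190406 with values, and 6 of the 16004 genes tested. They lie on chromosomes 5 (Grm3), 6 (Grm7 and Grm8), 7 (Grm5), 9 (Grm2) and 17 (Grm4).

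Whole brains of 12 DBA/2J (D2) and 10 C57BL/6J (B6) mice were compared on exon arrays, which carry several probesets, short groups of probes, along the exons of each gene. All animals were naive adult males of inbred strains, killed by cervical dislocation, and each array held RNA of 1 mouse. Splicing differences between the strains are the subject that the series title gives. In a whole brain, fewer cells of a type and less RNA per cell cannot be told apart, and a receptor restricted to a small region is diluted.

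Values are log2 expression as normalized by the authors, so a difference of 1 is a doubling. The gene value is the median over the gene's kept probesets on an array, and a probeset was kept if its mean over the 22 arrays reached 1.44, the median of all probeset means. Array medians ran from 1.45 to 1.51 in D2 and from 1.41 to 1.47 in B6. Arrays of the same strain correlated across genes at a median r of 0.975, against 0.968 for arrays of different strains. The file names in the labels carry a letter whose meaning is not given: 4 arrays have letter B (D2 replicates 13 and 22, B6 replicates 5 and 6) and 18 have letter A. Letter B arrays differed from letter A arrays in 14.8% of all genes (limma with strain in the fit, adjusted p under 0.05). The tissue label was checked with markers. Of the 4 measured pan-neuronal genes, strain means ran from 8.10 to 10.0 in D2 and from 8.21 to 10.1 in B6. Those of 3 measured genes of liver and muscle (Alb, Myh4 and Ckm) ran from 2.48 to 3.05 in D2 and from 2.34 to 2.70 in B6. These sets held no gene called between the strains (limma adjusted p under 0.05), but some other sets did. Lower in D2 were 2 of 3 blood genes (Hbb-b1, -4.12, and Alas2, -0.90) and 1 of 4 oligodendrocyte genes (Mobp, -0.78). So were 1 of 4 cerebellar granule cell genes (Cbln3, -0.40), 1 of 2 endothelial and 1 of 2 choroid plexus genes. Of 6 astrocyte genes, 1 was higher and 2 were lower.

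No metabotropic receptor gene was called as different between D2 and B6, which does not show that the strains are equal. Of the 6, 0 passed the test, against 10.8% of all genes (limma over 16004 genes, Benjamini-Hochberg adjusted p under 0.05). With so few genes, a count of 0 is near that share and is no result about the family. In this reported setting 0 had an unadjusted p under 0.05, while Grm2 and Grm3 did under some other settings, given below. No share of all genes at that unadjusted level is given here. Their D2 minus B6 differences had a median of -0.01 and ran from -0.07 to 0.23, while the median over all genes was -0.05. In absolute size the 6 had a median of 0.019 as reported, and all genes one of 0.13. The first depends on the setting: after centring of the arrays, the differences ran from 0.030 for Grm7 to 0.33 for Grm2. The 6 genes also had 10 to 22 kept probesets, while all genes tested had at least 3. For each of the 6 the values of D2 and B6 mice overlapped, as the plot of values by mouse shows, and of all genes 1.18% had no overlap between the strains.

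**Figure D1:**
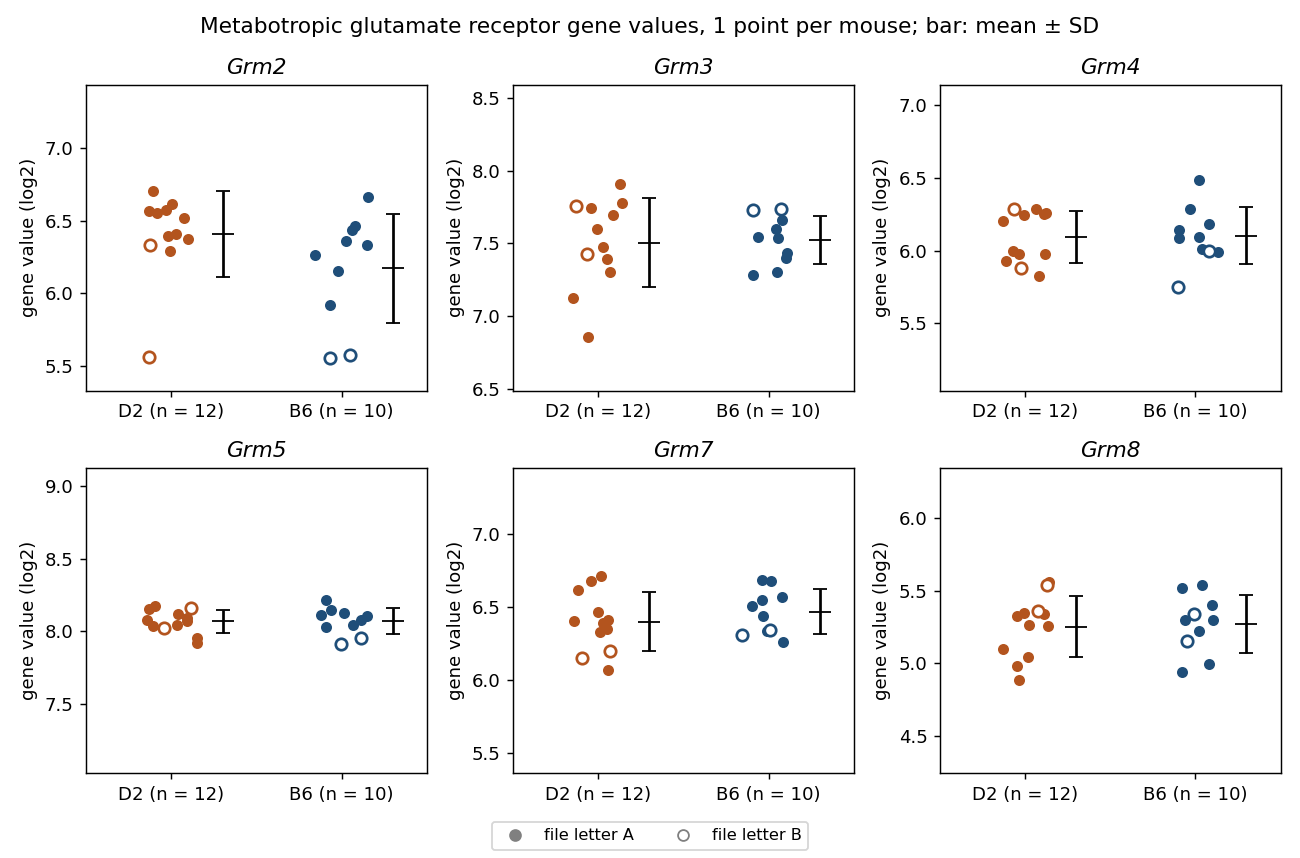
Gene values (log2) of the 6 receptor genes in each D2 mouse (left, n = 12) and each B6 mouse (right, n = 10), every panel spanning the same range of log2 units, with mean ± SD as bars and the letter B arrays as open circles. The strains overlap in each panel, Grm5 varies least, and 3 of the 4 letter B arrays hold the 3 lowest values of Grm2.

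Grm5, the group I receptor that Homer scaffolds tie to the postsynaptic density, was the member with the tightest values. Its gene value had a lowest, median and highest of 7.92, 8.08 and 8.17 in D2, and of 7.91, 8.09 and 8.22 in B6. The means were 8.07 ± 0.08 in D2 (SD, n = 12) and 8.07 ± 0.09 in B6 (SD, n = 10), so that the difference was -0.0044 with a 95% interval of -0.12 to 0.11 (limma adjusted p = 0.972). Expressed as a ratio of D2 to B6, that interval spans 0.918 to 1.08. The spread between mice of a strain was small too: the within-strain SD of 0.084 was the 21st lowest of the 16004 genes, and lay at percentile 0.416 of the 481 genes with as many kept probesets (16). This describes Grm5 on these arrays and was given no test.

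Group II is formed by Grm2, found on the terminals and axons of glutamatergic neurons and in Golgi cells of the cerebellum, and Grm3, which astrocytes express as well as neurons. Grm2 had the largest strain difference of the 6. Its gene value had a lowest, median and highest of 5.56, 6.46 and 6.70 in D2, and of 5.55, 6.30 and 6.66 in B6. The strains covered nearly the same range, and the lowest D2 mouse lay beside the 2 lowest B6 mice. The means were 6.41 ± 0.29 in D2 (SD, n = 12) and 6.17 ± 0.37 in B6 (SD, n = 10), a difference of 0.23 (95% interval -0.04 to 0.51, limma adjusted p = 0.284). A ratio of D2 to B6 of up to 1.42 is therefore within the interval.

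Grm3 had a lowest, median and highest of 6.86, 7.54 and 7.91 in D2, and of 7.29, 7.54 and 7.74 in B6. The 2 lowest D2 mice, replicates 14 and 19, lay below every B6 mouse, and the highest D2 mice lay above every B6 mouse. The means were 7.51 ± 0.31 in D2 and 7.52 ± 0.16 in B6, a difference of -0.02 (95% interval -0.24 to 0.20, limma adjusted p = 0.940). D2 replicates 13, 14 and 19 had correlated least with their strain in an earlier look at these data, and without them the difference was 0.11 (limma adjusted p = 0.540).

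The group III receptors are largely presynaptic. Grm4, abundant in cerebellar granule cells whose parallel fibre terminals carry it, had a lowest, median and highest of 5.83, 6.10 and 6.29 in D2, and of 5.75, 6.09 and 6.48 in B6. B6 mice reached both slightly lower and higher than D2 mice, and the difference was -0.0074 (95% interval -0.18 to 0.17, limma adjusted p = 0.967). Grm7, a receptor of low glutamate affinity in the active zone of many terminals, had a lowest, median and highest of 6.07, 6.40 and 6.71 in D2, and of 6.26, 6.47 and 6.69 in B6. D2 mice reached both lower and slightly higher than B6 mice, with a difference of -0.07 (95% interval -0.24 to 0.10, limma adjusted p = 0.641). Grm8, another presynaptic group III receptor, had a lowest, median and highest of 4.89, 5.30 and 5.56 in D2, and of 4.94, 5.30 and 5.54 in B6. Its medians were equal to 2 decimals and the difference was -0.02 (95% interval -0.21 to 0.17, limma adjusted p = 0.917). Grm6, a family member that serves as the receptor of retinal ON bipolar cells, was near the filter level in both strains (2.05 ± 0.17 in D2, 2.03 ± 0.19 in B6, limma adjusted p = 0.951).

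The file letter moved with 1 of the 6 genes. Grm2 was lower by 0.65 ± 0.12 (SE) on letter B arrays (limma with strain in the fit, adjusted p = 0.000827), while the other 5 were not called for the letter (adjusted p from 0.121 for Grm7 to 0.559 for Grm8). The values on letter B were 5.56 and 6.33 in D2, and 5.55 and 5.58 in B6, against ranges of 6.29 to 6.70 in D2 and 5.92 to 6.66 in B6 on letter A. D2 replicate 22 was thus the letter B array within the letter A range. By probeset, 9 of the 10 kept Grm2 probesets were lower on letter B with strain in the fit, with differences from -0.76 to 0.24 and a median of -0.31. The part of the letter in the Grm2 values was not tested beyond these fits. As a share of all genes, 10.2% were called lower on letter B. Among the markers, 2 of 4 glutamatergic genes were called lower (Slc17a7, -0.34, and Tbr1, -0.69) and 0 higher. Of 4 measured pan-neuronal genes, 1 was lower (Snap25, -0.43) and 1 higher (Stmn2, 0.33). Their part in the Grm2 difference was not tested.

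**Figure D2:**
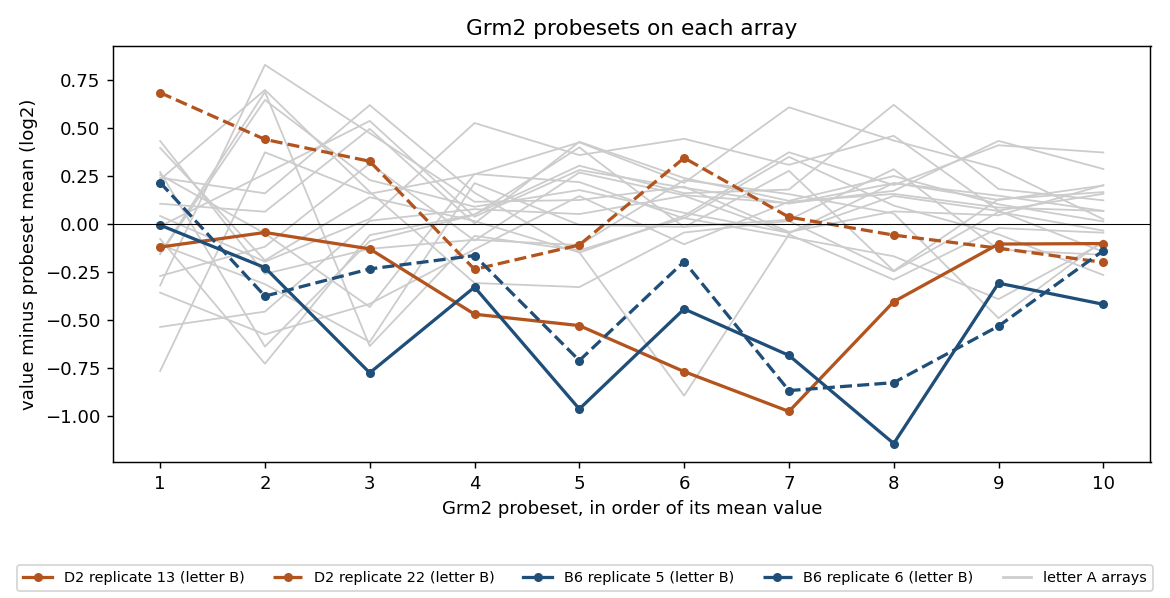
Value of each of the 10 kept Grm2 probesets on each array, minus the mean of that probeset over the 22 arrays (log2), with probesets ordered from dim to bright. The letter A arrays are grey and the 4 letter B arrays are coloured (D2 orange, B6 blue). B6 replicates 5 and 6 and D2 replicate 13 run below most letter A arrays over much of the gene, and D2 replicate 22 does not.

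Within each letter the strain difference was computed again. On the 18 letter A arrays it was 0.17 for Grm2 (limma adjusted p = 0.249), 0.02 for Grm3, -0.06 for Grm4, -0.04 for Grm5, -0.06 for Grm7 and -0.07 for Grm8. On the 4 letter B arrays, 2 of each strain, it was 0.38 for Grm2 (adjusted p = 0.602), -0.14 for Grm3, 0.21 for Grm4, 0.16 for Grm5, -0.15 for Grm7 and 0.20 for Grm8. With the letter as a block the Grm2 difference was 0.21 (adjusted p = 0.124). The difference between the letters was itself not called for any of the 6 (interaction term in limma, adjusted p = 0.993 for each, lowest unadjusted p = 0.148 for Grm5) and over all genes 0% were called.

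The probesets were then examined one by one. Of the 106 probesets, 95 were kept and 11 were not: 4 of Grm2, 3 of Grm7, 2 of Grm8 and 1 each of Grm3 and Grm4. Those 11 had means of 0.021 to 1.15 over the arrays, where a strain difference cannot be read. Of the 95 kept, 0 were called on their own value, against 3.91% of all kept probesets (limma over 595203 probesets, adjusted p under 0.05). At an unadjusted p under 0.05 there were 12 of the 95. The share of all kept probesets at that unadjusted level is not given here, so no excess can be read from the 12. By sign 51 were higher and 44 lower in D2, and 92 differed by less than 0.5. In 0 of the 95 did the strains lie apart without overlap, against 0.77% of all kept probesets.

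**Figure D3:**
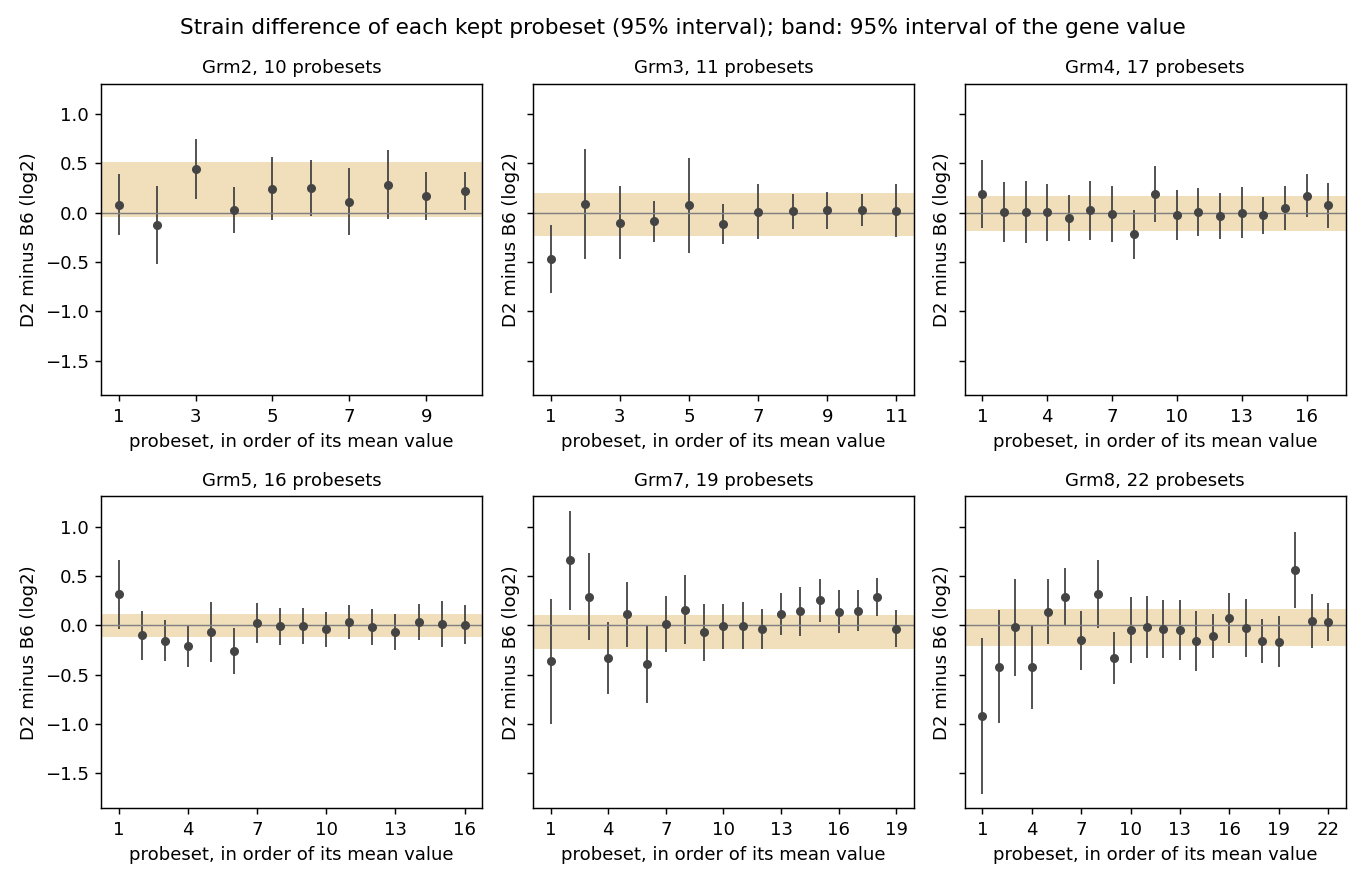
D2 minus B6 difference (log2) of each kept probeset with its 95% interval, 1 panel per gene, with probesets ordered from dim to bright along the x axis. The band is the 95% interval of the gene value. The 3 differences of 0.5 or more belong to Grm7 and Grm8, and those of Grm4 and Grm5 stay within 0.32 of 0.

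The 3 probesets with a difference of 0.5 or more were 1 of Grm7 and 2 of Grm8. Probeset 4524170 of Grm8 had a lowest, median and highest of 1.00, 1.60 and 3.70 in D2, and of 1.18, 2.90 and 4.57 in B6. Its values spread widely in both strains and close to the filter level, and the difference of -0.92 (95% interval -1.71 to -0.12) was not called (limma adjusted p = 0.219). Probeset 5400273 of Grm8 had 6.07, 6.63 and 7.35 in D2, and 5.54, 6.04 and 6.88 in B6, with a difference of 0.56 (limma adjusted p = 0.101). Probeset 4603679 of Grm7 had 3.83, 4.16 and 5.09 in D2, and 1.92, 3.86 and 4.30 in B6, with a difference of 0.66 (limma adjusted p = 0.153). In each of the 3 the ranges of the strains overlapped. With the array median as covariate the 3 differences were 0.07 for 4524170, 0.24 for 5400273 and 0.07 for 4603679. Array medians were mostly higher in D2, so this fit can take up part of the strain difference. It also raised the SE of the Grm2 gene value from 0.13 to 0.20. A difference or call that shrinks with this covariate, here or below, thus cannot be assigned to the arrays or to the strains.

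Among the probesets of the other 4 genes the extremes were smaller. For Grm2 they were 0.44 (probeset 4561070, limma adjusted p = 0.103, and 0.17 once the array median was a covariate) and -0.12 (4698935), and 9 of the 10 were higher in D2. For Grm3 they were 0.09 (4315079) and -0.47 (4400558, adjusted p = 0.137), for Grm4 0.19 (5152664) and -0.22 (5188701), and for Grm5 0.32 (4868335) and -0.26 (5490711). The lowest of Grm7 was at -0.40 (5602666, and -0.14 with that covariate). For Grm5 the probeset at the upper extreme was its dimmest, at 3.04 ± 0.50 in D2 (SD, n = 12) and 2.72 ± 0.23 in B6 (SD, n = 10).

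Exon usage was read from the splicing index, obtained by subtracting from a probeset the gene value of that array, and called at an adjusted p under 0.05 with a difference of at least 0.5. Of the 95 kept probesets, 0 were called on it, against 1.67% of the 236151 tested. At an unadjusted p under 0.05 there were 15 of the 95, again without a share of all probesets at that level, so no excess can be read. One probeset passed the p threshold without the size, 5101544 of Grm7, which is singled out here after its values were seen. A share of 2.04% of all probesets tested passed that threshold regardless of size. Its index was 1.65 ± 0.15 in D2 (SD, n = 12) and 1.29 ± 0.14 in B6 (SD, n = 10), a difference of 0.36 (95% interval 0.20 to 0.51, limma adjusted p = 0.00928). Its own value had a lowest, median and highest of 7.74, 8.05 and 8.22 in D2, and of 7.48, 7.81 and 8.10 in B6. Of the 12 D2 mice, 11 were at 8.01 or above, a level that 1 of the 10 B6 mice reached, but the difference of 0.29 in the value itself was not called (limma adjusted p = 0.0920). The second lowest index p among members was also in Grm7, for probeset 5218546, with an index difference of 0.32 (adjusted p = 0.0568). These indices are taken against the Grm7 gene value, which differed by -0.07, while its 19 kept probesets had a median difference of 0.11. The subtraction thus raises each Grm7 index difference. With the mean over probesets the Grm7 gene difference was 0.06. No variant table was used here, and the position of a probeset in its gene is not given in the files.

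The probesets of a gene moved together over mice to different degrees. Each kept probeset was set against the median of the other kept probesets of its gene, after the strain means were removed, over the 22 arrays. The median r was 0.57 for Grm2, 0.41 for Grm4, 0.40 for Grm8, 0.17 for Grm7, 0.04 for Grm5 and 0.01 for Grm3. The probesets share arrays and their normalization, so these r describe the data and carry no test. In Grm2, where the arrays of letter B were low, 6 of 10 probesets had an r above 0.5, against 2 of 16 in Grm5.

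Between the 6 genes, 15 pairs were correlated over the 22 arrays after removal of the strain means, and 0 pairs passed (permutation test, two-sided, Benjamini-Hochberg over 15 pairs), with 3 at an unadjusted Pearson p under 0.05. The highest was Grm5 with Grm8, with Pearson's r = 0.48 (permutation p = 0.0228, adjusted p = 0.214) and Spearman's rho = 0.52 (permutation p = 0.0146, adjusted p = 0.186). It was 0.52 without the 2 arrays farthest from the median of Grm5, 0.69 within D2, 0.26 within B6 and 0.58 on letter A arrays. With the letter removed as a block, an alternative added after the data were seen, the pair was called (r = 0.60, permutation adjusted p = 0.0429; rho = 0.69, adjusted p = 0.0093). Grm5 with Grm7 followed (Pearson's r = 0.45, permutation p = 0.0342, adjusted p = 0.214; Spearman's rho = 0.45, permutation p = 0.0372, adjusted p = 0.186). It was 0.27 without the 2 farthest arrays. Grm2 with Grm7 stood at r = 0.44 (permutation p = 0.0428, adjusted p = 0.214) and rho = 0.40 (permutation p = 0.0664, adjusted p = 0.249), and at 0.17 on letter A arrays. The lowest r was that of Grm3 with Grm5, at -0.25 (permutation p = 0.256, adjusted p = 0.548; rho = -0.20, permutation p = 0.370, adjusted p = 0.672).

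For each receptor the 3 genes with the most similar deviations from the strain means over the 22 arrays were listed. Grm2 was closest to Usp20 (r = 0.96, and 0.88 on letter A arrays alone), Rims3 (0.93 and 0.78) and Ppp2r1a (0.92 and 0.83). Grm3 was closest to Cntnap5b (0.88), Pon2 (0.87) and Ctage5 (0.85), and Grm4 to Eif4g3 (0.78), Sdk2 (0.76) and Camta2 (0.76). Grm5 was closest to Camk2a, the alpha subunit of the postsynaptic kinase CaMKII (r = 0.78, and 0.81 on letter A arrays alone), Tppp (0.75) and Nell2 (0.73). Grm7 was closest to Snx21 (0.73), Shmt2 (0.72) and Cda (0.72), and Grm8 to Prkg1, a cyclic GMP-dependent protein kinase (0.83), Fam161a (0.82) and Rbm41 (0.81). These genes are the closest among all 16004, over arrays that share their normalization, and no test was made.

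Genes around the receptors were read from 4 lists, each set against the 10.8% of all genes called and the median of -0.05 over all genes. Of the 10 measured genes of group I signalling, 1 was called, lower in D2, and the list's median difference was -0.12. It was Plcb1, a phospholipase C that Gq activates, at 7.13 ± 0.15 in D2 (SD, n = 12) and 7.39 ± 0.07 in B6 (SD, n = 10; difference -0.26, limma adjusted p = 0.0114). Itpr1, the receptor that releases calcium in response to the product of phospholipase C, was at 8.98 ± 0.08 in D2 and 9.01 ± 0.08 in B6 (limma adjusted p = 0.765). Of the 16 measured receptor partners and scaffolds, 1 was called, lower in D2, with a list median of -0.06. Homer2, a scaffold that binds group I receptors, was at 4.14 ± 0.40 in D2 and 4.58 ± 0.28 in B6 (difference -0.44, limma adjusted p = 0.0442). The Plcb1 call was lost after centring of the arrays (difference -0.16, adjusted p = 0.104), without D2 replicates 13, 14 and 19 (-0.21, 0.0563) and once the array median entered the fit (-0.18, 0.363). The Homer2 call was lost in the same settings (-0.34, adjusted p = 0.0827; -0.27, 0.192; -0.02, 0.978) and on letter A arrays alone, where the difference was -0.49 (0.0556). The Plcb1 and Homer2 calls were kept with the letter as block (Plcb1 -0.26, limma adjusted p = 0.00828, Homer2 -0.43, 0.0435). They were kept too with no filter (Plcb1 -0.23, 0.0260, Homer2 -0.75, 0.00068) and with the mean over probesets (Plcb1 -0.24, 0.00913, Homer2 -0.38, 0.00141). Plcb1 was also called on letter A arrays (-0.26, 0.0276). Some settings added calls. Prkca, a protein kinase C, at -0.27 and an adjusted p of 0.0509 as reported, was called lower with the letter as block (-0.28, limma adjusted p = 0.0237), on letter A arrays (-0.33, 0.0205) and with the mean over probesets (-0.32, 0.00567). Homer1, another scaffold of that family, stood at -0.09 as reported (adjusted p = 0.722) and at -0.36 with the mean over probesets (0.00078). Over the 9 alternatives the count called lower ran from 0 to 3 in either list.

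Of the 19 measured genes of group II and III signalling, 1 was called, lower in D2, with a list median of -0.09. Rgs8, which speeds the switching off of Gi/o proteins, was at 6.67 ± 0.15 in D2 and 7.02 ± 0.24 in B6 (difference -0.35, limma adjusted p = 0.0102). Its call was lost with centring (difference -0.25, adjusted p = 0.0514) and with the array median as covariate (-0.32, 0.217). The 3 Gi genes Gnai1, Gnai2 and Gnai3 and the Go gene Gnao1 were at differences of -0.19, -0.04, -0.25 and -0.02, none of them called as reported. Gnai3 was called lower with no filter (-0.28, limma adjusted p = 0.0407). With the mean over probesets Adcy2 was called lower (-0.18, 0.0257) and Kcnj9 higher (0.34, 0.000316). Over the 9 alternatives the count called lower ran from 0 to 2, and the count called higher from 0 to 1.

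Among 15 measured genes of ligand supply and clearance, 2 were called higher and 1 lower in D2, with a list median of -0.18. Folh1, the peptidase that cleaves N-acetylaspartylglutamate, the dipeptide agonist of Grm3, into N-acetylaspartate and glutamate, was at 4.97 ± 0.31 in D2 (SD, n = 12) and 4.37 ± 0.38 in B6 (SD, n = 10). It rose by 0.61 in D2 (limma adjusted p = 0.00472). Slc17a5, the lysosomal sialic acid transporter, rose by 0.32 (6.15 ± 0.23 in D2 and 5.83 ± 0.21 in B6, limma adjusted p = 0.0299). Its call was lost with the mean over probesets (difference 0.03, adjusted p = 0.799), with no filter (0.14, 0.425), without D2 replicates 13, 14 and 19 (0.28, 0.0957) and with the array median in the fit (0.40, 0.134). The call was kept with centring (0.42, limma adjusted p = 0.00318), the letter as block (0.32, 0.0246) and letter A arrays (0.37, 0.0240). Glul, the glutamine synthetase with which astrocytes convert glutamate, was at 9.75 ± 0.16 in D2 and 10.18 ± 0.09 in B6 (difference -0.43, limma adjusted p = 8.7e-05). The call of Folh1 was kept with centring, the array median as covariate, the letter as block, letter A arrays alone and without D2 replicates 13, 14 and 19 (adjusted p from 2.6e-05 to 0.00636). Glul lost its call with the array median as covariate (difference -0.33, adjusted p = 0.0596). Astrocyte markers moved with these genes in part: of 6 measured, 1 rose (Gja1, 0.28) and 2 fell in D2 (Gfap, -0.80, and Aldh1l1, -0.40), and their part in the Glul and Folh1 differences was not tested. The enzymes that join N-acetylaspartate to glutamate, Rimkla (0.15) and Rimklb (-0.18), were not called, nor was the glial transporter Slc1a2 (-0.18) as reported. With the mean over probesets Slc1a2 (-0.19, limma adjusted p = 0.0188), Slc1a6 (-0.31, 0.00575) and Slc7a11 (-0.33, 0.0172) were called lower. Naalad2 was called lower with the array median as covariate (-0.82, 0.044) and on letter A arrays (-0.56, 0.0383). Over the 9 alternatives, 0 to 4 of this list were called lower and 0 to 3 higher.

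The receptor differences were computed again under other ways of processing. With all settings shown in the plot by setting, 0 of the 6 receptor genes were called. Grm2 was higher in D2 in each, by 0.17 to 0.38. Its unadjusted limma p was under 0.05 with no filter (0.0137), the mean over probesets (0.0438), centring (0.0110) and the letter as block (0.0275). It was also under 0.05 without D2 replicates 13, 14 and 19 (0.0161), and ran from 0.0635 to 0.194 in the other alternatives. Grm3 had an unadjusted limma p of 0.0356 with the array median as covariate (difference 0.29). The 5 genes other than Grm2 changed sign under some of the settings.

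**Figure D4:**
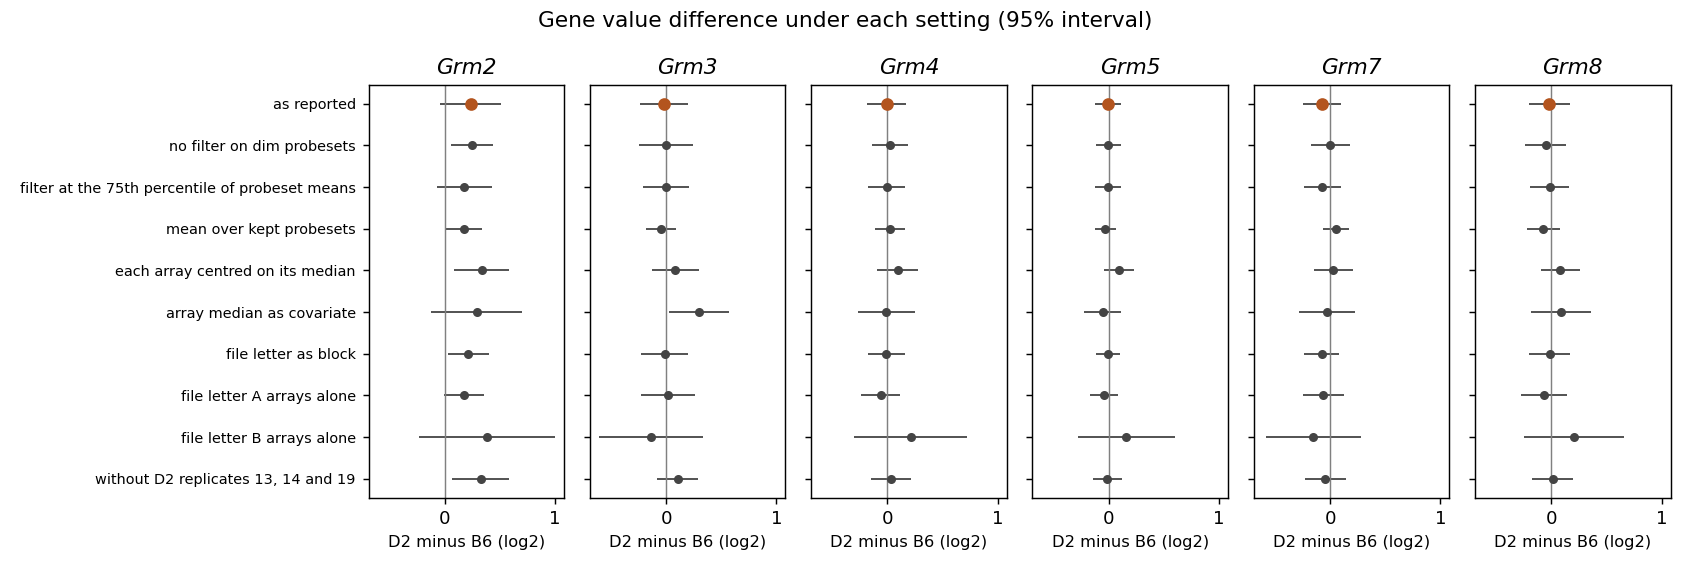
D2 minus B6 difference (log2) of the gene value with its 95% interval, for each of the 6 genes (columns) and each way of processing (rows), with the reported one on top in orange. The 4 letter B arrays alone give the widest intervals. Grm2 lies to the right of 0 in each row.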

How the data were processed

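The authors deposited log2 expression values of 1201338 probesets on 22 Affymetrix Mouse Exon 1.0 ST arrays, made with RMA (affy 1.12.2, R 2.6.0), per the submitters' processing notes; its options and the genome build are not given in the sources used here. RMA subtracts background and equalizes the arrays by quantiles, so a shift of all RNA in the tissue cannot be read from the values. The median gene value still ran from 4.40 to 4.80 over the arrays. Per the labels, 24 arrays were hybridised and 2 read by another scanner were left out by the authors. Rows empty on all arrays (10932) were dropped. Of the rest, 309786 probesets had 1 symbol in the platform annotation (its current form looked up in a GRCm38.p6 gene table), 6308 several and 874312 none. Arrays give no read depth, and precision rests on how many were run.

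Gene values needed at least 3 kept probesets. Gene values, probesets (the 595203 at or above 1.44) and splicing indices were fitted with limma 3.58.1 in R 4.3.3 (lmFit, eBayes, D2 minus B6), adjusted by Benjamini-Hochberg over all features tested. Correlations used 100000 permutations. The functions were tested on simulated data. Recovery of the largest simulated difference was required of gene and probeset values, but not of the splicing index, so how often the index test finds a difference is not given here. The members, lists and naming rule were chosen with earlier results of these data known. The rule named all 6 genes, called probesets, each gene's highest and lowest probeset difference, 3 nearest genes each, and up to 3 called genes per list, or the 1 with the largest difference; other genes named were chosen after their values were seen. Probes were designed on B6 sequence, so a D2 variant can lower D2 signal. Alternatives changed the filter, probeset summary, scaling, covariate, letter and arrays used. Centring used the median gene value of an array for gene values, and the array median over all probesets for probeset values. The covariate was the array median over all probesets for both.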

Additional observations from a re-analysis of the deposited data

Results flagged for a closer look

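In the 10 B6 mice, the 6 gene values and 13 named probesets were examined for a mouse set apart from the rest, and 2 were found, where chance gives about 1 in 20 groups. Probeset 4400558 of Grm3 was at 2.89 in B6 replicate 3, below the other 9 B6 mice (3.25 to 3.63). Probeset 5188701 of Grm4 was at 5.62 in B6 replicate 5, a letter B array, below the other 9 (6.09 to 6.50). Neither probeset was called between the strains. Groups of more than 10, and so the D2 mice, were not examined this way.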

How the results depend on the processing

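Of 54 recomputed gene value differences, 35 kept their sign and 19 turned, none with a call. Turned values were, after centring of the arrays (which moved the median of all genes to 0.05, against -0.05), Grm3 0.082, Grm4 0.092, Grm5 0.095, Grm7 0.030 and Grm8 0.079. With the array median as covariate they were Grm3 0.29 and Grm8 0.087, on letter A arrays Grm3 0.018, and on letter B arrays Grm4 0.21, Grm5 0.16 and Grm8 0.20. Without D2 replicates 13, 14 and 19 they were Grm3 0.11, Grm4 0.029 and Grm8 0.011, with no filter Grm4 0.020 and Grm7 0.0019, with the mean over probesets Grm4 0.021 and Grm7 0.056, and with the stricter filter Grm3 0.00090. Of the members' probesets, 1 was called on its value with the filter at the 75th percentile (Grm7 5101544, 0.29, limma adjusted p = 0.0382; 0.0713 to 0.856 under the other alternatives), where fewer probesets were tested. On the index 1 was called with no filter (Grm2 5300984, -0.68, adjusted p = 0.0313), a probeset below the filter level. The index of 5101544 stayed at an adjusted p under 0.05 under 4 of 8 alternatives (0.00499 to 0.756 over all 8). Probeset values that turned were 4698935 of Grm2 (0.50) and 4315079 of Grm3 (-0.60) on letter B arrays and 4524170 of Grm8 (0.069) with the covariate. Indices that turned were 4561070 of Grm2 (-0.12) with the covariate and, on letter B arrays, 4698935 of Grm2 (0.12), 4315079 of Grm3 (-0.46) and 5602666 of Grm7 (0.041). The causes were not tested. Pairs of receptors called by correlation were 2 with the mean over probesets (Grm2 and Grm4, Grm3 and Grm8), 1 with the letter removed (Grm5 and Grm8) and 1 without the 3 D2 arrays (Grm2 and Grm5), alternatives added after the data were seen. All genes called were 1734, but 2714 with the mean over probesets, 494 with the covariate and 75 on letter B arrays; of these calls 411 were higher and 1323 lower in D2, against 1021 and 755 with centring and 265 and 229 with the covariate. All probesets called were 23265, but 10983 with the covariate and 436 on letter B arrays, and index calls were 3937, but 2113 with the covariate and 0 on letter B arrays. No paired analysis was possible because the strains share no replicate numbers.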
